A study of Mus musculus with 12 samples.

Results

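The genes described here are 4 nuclear receptors of the lipid-sensing system, Pparg, Ppara, Ppard and Rxra, and 6 of their known target genes, Fabp4, Cd36, Lpl, Plin2, Angptl4 and Ucp2, measured in pancreatic islets of 4 mouse genotypes. They were listed by name, and the probes of each gene were found through the RefSeq accession that the array gives for a probe. This gave 10 genes of the 17305 named on the array, with 16 probes of 41174. The 4 genotypes were wild type (WT), PPARγ2KO, which lacks the γ2 isoform of PPARγ, ob/ob, which lacks leptin and is labelled OB KO, and POKO, the OB PPARg2 double KO. Each genotype had 3 Agilent arrays in 1 colour, and each array held a pool of islets from 3 to 4 mice. The mice were female, per the study's text. All were on a C57BL/6 x Sv129 background and a chow diet, at 4 weeks of age by their labels, and carried their null alleles in every tissue. Islets were picked by hand and kept in culture overnight before RNA was extracted.

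PPARs are transcription factors that bind fatty acids and their derivatives and act on DNA as pairs with a retinoid X receptor (RXR). PPARγ is the main driver of fat cell formation, and its γ2 isoform, which starts from a promoter of its own, is mostly a fat cell isoform. PPARα drives fatty acid oxidation, PPARδ is broadly expressed, and the targets followed here handle fatty acids outside and inside the cell.

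The signal of a probe is given as log2 of the processed intensity after quantile normalization, and a level of 1 probe is never set against that of another. With 3 arrays a genotype, it is their number that limits how precise a value is. The median processed signal of an array before normalization was 20.9 to 27.0 in WT, 23.0 to 30.4 in PPARγ2KO, 30.7 to 40.6 in ob/ob and 31.6 to 33.6 in POKO. Of 9 measured beta cell markers 8 were well above background on all 12 arrays, as were the 4 alpha and 2 delta markers and the PP marker, and so were all 7 measured acinar markers, so that the islets carried exocrine RNA in every genotype. Adipoq and Lep, which define fat cells, were well above background on 0 of 12 arrays, so leptin itself gave no check of the ob/ob label. Some arrays stood apart within their group. The mean of 11 T and B lymphocyte markers was 7.34 on PPARγ2KO replicate 2 against 3.62 and 3.78 on the other PPARγ2KO arrays. The same mean was 3.39 to 3.94 in WT, 6.91 to 7.12 in ob/ob and 6.24 to 7.36 in POKO. On ob/ob replicate 1 the mean of 7 fibroblast and stellate markers was 10.97, against 9.13 and 8.97 on the other ob/ob arrays. WT replicate 3 had an endothelial mean of 9.07, against 8.37 and 7.89 on the other WT arrays.

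Pparg lies at chr6:115360879-115490404 (GRCm38.p6, plus strand), and windows of 3 RefSeq start sites were available for it. All 3 windows lie within these coordinates, so the first base of the gene as annotated comes before start 1. The 250 bases before each start are shown because Pparg is the gene that the PPARγ2 allele alters and the member that differed most among the genotypes. Capitals mark the motif AGGTCA, the core to which PPAR and RXR each bind, found on either strand.
Pparg start 1, chr6:115360894-115361143, plus strand: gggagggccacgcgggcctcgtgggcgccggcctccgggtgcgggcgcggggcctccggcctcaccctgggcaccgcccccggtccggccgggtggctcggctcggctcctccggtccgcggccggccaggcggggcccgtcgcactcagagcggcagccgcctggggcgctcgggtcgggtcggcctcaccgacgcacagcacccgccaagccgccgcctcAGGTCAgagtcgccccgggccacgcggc
Pparg start 2, chr6:115362099-115362348, plus strand: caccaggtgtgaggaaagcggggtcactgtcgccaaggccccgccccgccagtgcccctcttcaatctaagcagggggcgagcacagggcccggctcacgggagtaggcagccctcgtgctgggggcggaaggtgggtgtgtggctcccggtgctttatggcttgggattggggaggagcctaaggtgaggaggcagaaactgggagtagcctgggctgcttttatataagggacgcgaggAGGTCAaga
Pparg start 3, chr6:115421816-115422065, plus strand: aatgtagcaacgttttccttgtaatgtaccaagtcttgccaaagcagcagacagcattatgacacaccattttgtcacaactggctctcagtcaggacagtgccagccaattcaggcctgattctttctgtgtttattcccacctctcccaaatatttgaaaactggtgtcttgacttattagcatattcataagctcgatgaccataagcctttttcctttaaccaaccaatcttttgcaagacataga
The first 2 windows each held 1 AGGTCA, starting 28 and 9 bases before the start. The last, far downstream and with 40.8% G and C against 82.4% and 63.6%, held none. Of the other members, Rxra had 2 such motifs in 1 of its 2 windows, and Cd36 and Plin2 had 1 each on the opposite strand, while Ppara, Ppard and Ucp2 had none. Thus 5 of the 10 windows of 7 members held the motif, against 14% of 32851 windows of all genes. A pair of AGGTCA in 1 direction spaced by 1 base, the arrangement known as DR1, was in none of the 10 windows and in 0.0335% of all. These are matches of letters in windows of 250 bases and not sites of binding.

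The Pparg probe separated the genotypes by the PPARγ2 allele. Its normalized log2 signal was 8.87, 8.98 and 8.85 in WT and 8.54, 9.77 and 9.61 in ob/ob. It was 7.44, 7.27 and 6.60 in PPARγ2KO and 6.41, 7.11 and 7.14 in POKO. Every array of the genotypes with PPARγ2 was above every array of the genotypes without it, with a gap of 1.1 between the lowest of the former and the highest of the latter. Of 41174 probes, 26 (0.0631%) had this order on all 12 arrays, and Pparg had the widest gap of them, ahead of the next at 0.52. The probe was well above background on all arrays and was printed 10 times on each. The SD between the arrays of a genotype was 0.07 in WT, 0.44 in PPARγ2KO, 0.67 in ob/ob and 0.41 in POKO, and that between the 8 to 10 usable spots of 1 array, which is technical, was 0.0321 to 0.122. The probe carries the accession NM_011146. Its place relative to the deleted exon is not given in the files, so what RNA it still detects in the null genotypes is not known.

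**Figure D1:**
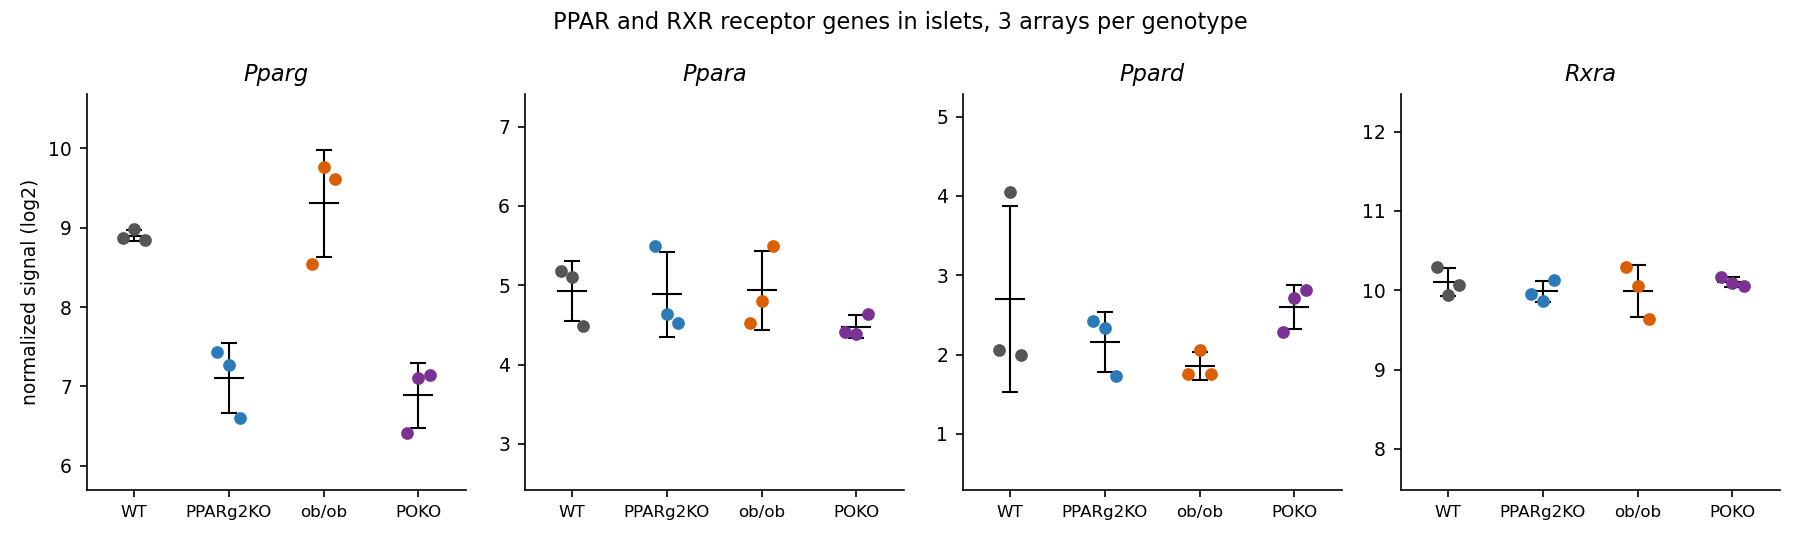
Normalized log2 signal (vertical axis, each panel 5 units high) of the brightest probe of Pparg, Ppara, Ppard and Rxra in the 4 genotypes; points are arrays, and bars are the mean and SD of 3 arrays. The Pparg points of PPARg2KO (6.60 to 7.44) and POKO (6.41 to 7.14) lie below all those of WT and ob/ob (8.54 to 9.77), while the other receptors overlap between most genotypes and Ppard is not well above background.

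Pparg was the only one of the 10 members called in the test of any difference among the 4 genotypes (limma moderated F, Benjamini-Hochberg over all probes, adjusted p = 0.0383), a test that 0.563% of all probes passed. By pairs, POKO was 4.03-fold below WT (log2 fold change -2.01, SE 0.35, limma adjusted p = 0.0643) and 5.35-fold below ob/ob (-2.42, adjusted p = 0.23). PPARγ2KO was 3.47-fold below WT (-1.79, adjusted p = 0.257) and ob/ob 4.61-fold above PPARγ2KO (2.20, adjusted p = 0.0796). None of these passed 0.05, although the 95% intervals of the fold changes, which are not adjusted, all exclude 0. POKO and PPARγ2KO differed by -0.22 (95% interval -1.0 to 0.57), and ob/ob and WT by 0.41 (-0.37 to 1.19). The effect of the PPARγ2 allele with and without leptin differed by -0.62 (95% interval -1.73 to 0.48, interaction, adjusted p = 0.585). Without ob/ob replicate 1 this was -1.01, and ob/ob vs. WT was 0.79. Without ob/ob replicate 2 they were -0.39 and 0.18, and neither passed in any fit with 1 array left out. The mean of both null genotypes against both intact ones, a contrast added after the values were seen, gave -2.11 (SE 0.25, 95% interval -2.66 to -1.55, adjusted p = 0.211). Over the 12 arrays Pparg had an r of -0.58 with the mean of 7 fibroblast and stellate markers, the largest in absolute size among the cell type lists. Its r was 0.47 with beta cell, -0.38 with macrophage and -0.1 with endothelial markers, all descriptions over arrays that share genotypes. The fibroblast and stellate mean was 9.62 to 10.02 in WT, 9.45 to 10.72 in PPARγ2KO, 8.97 to 10.97 in ob/ob and 10.04 to 11.02 in POKO. The part of any of these cell types in the Pparg difference was not tested.

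The call of Pparg in the F test was lost with the slide as a block (adjusted p = 0.0719) and with another background correction (normexp with an offset, 0.0527), which also brought PPARγ2KO vs. WT to -0.98 and POKO vs. ob/ob to -1.39. It was also lost without WT replicate 1 or 2, ob/ob replicate 2 or 3, or any 1 of the POKO arrays (0.0718 to 0.0968). Without PPARγ2KO replicate 2, the array with high lymphocyte markers, it was 0.0246. POKO vs. WT passed with a shift to the 75th percentile (0.0355), without dim probes (0.0253), with only the groups compared in the fit (0.0377) and with weights for single arrays (0.0138). Of the 12 fits with 1 array left out, POKO vs. WT and ob/ob vs. PPARγ2KO each passed in 2 (adjusted p 0.0336 to 0.219 and 0.0122 to 0.209). POKO vs. ob/ob and the null against the intact genotypes each passed in 1 (0.0219 to 0.401 and 0.0298 to 0.354), and PPARγ2KO vs. WT in 0. The lowest value of each of these 4 ranges came without ob/ob replicate 1, the ob/ob array with the lowest Pparg and the highest fibroblast and stellate mean.

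Ppara (chr15:85734910-85806851), the receptor that drives fatty acid oxidation, had signals that overlapped between all genotypes. They were 5.18, 5.11 and 4.49 in WT, 5.50, 4.64 and 4.52 in PPARγ2KO, 4.52, 4.80 and 5.49 in ob/ob, and 4.41, 4.38 and 4.64 in POKO. The F test gave an adjusted p of 0.641 (limma), and the 95% intervals of the 6 pairwise differences ran from -1.18 to 0.78 at their widest, so changes of about that size could not be seen with 3 arrays. Ppard (chr17:28232754-28301469) was not well above background on any of the 12 arrays and gets no fold change. Its probe read 1.99 to 4.05 in WT, 1.73 to 2.42 in PPARγ2KO, 1.75 to 2.06 in ob/ob and 2.29 to 2.81 in POKO.

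Rxra (chr2:27676445-27763319), the DNA-binding partner of all PPARs, has 2 probes that disagree. The brighter read 10.29, 9.94 and 10.07 in WT, 9.96, 9.87 and 10.13 in PPARγ2KO, 10.29, 10.05 and 9.64 in ob/ob and 10.17, 10.09 and 10.05 in POKO. Its F test gave an adjusted p of 0.874, and all pairwise 95% intervals lay between -0.48 and 0.48. The dimmer read 7.17, 7.29 and 6.63 in WT, 7.17, 7.18 and 6.87 in PPARγ2KO, 6.50, 6.02 and 6.60 in ob/ob and 6.25, 6.73 and 6.72 in POKO. On this probe every ob/ob array was below every WT array, in a comparison where 41.2% of all probes had no overlap (log2 fold change -0.65, limma adjusted p = 0.0842). It passed in 1 of 12 fits with 1 array left out (0.027 to 0.235), without WT replicate 3, and its fold change ran from -1.01 with array weights (0.00862) to -0.19 with normexp. Both leptin-deficient genotypes together were below both lean ones by -0.58 (SE 0.16, adjusted p = 0.0521, a contrast added after the values were seen). Of the other RXR genes, Rxrb was at 10.41 to 10.76 in WT and 10.20 to 10.62 in ob/ob, with none of its differences called. Rxrg was well above background on 0 of 3 WT arrays and 2 of 3 in each other genotype.

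Among the targets, Fabp4 (chr3:10204342-10208616, GRCm38.p6), the fatty acid carrier of fat cells, macrophages and capillary endothelium, was the only member called in a pairwise comparison. Its signal was 10.20, 9.85 and 11.18 in WT and 11.83, 11.71 and 11.63 in ob/ob. PPARγ2KO had 10.62, 10.85 and 11.15, and POKO had 10.90, 11.73 and 10.75. All ob/ob arrays were above all WT and PPARγ2KO arrays, and POKO overlapped with every genotype. Of all probes, 41.2% had no overlap between ob/ob and WT and 21.6% between ob/ob and PPARγ2KO. ob/ob was 2.48-fold above WT (log2 fold change 1.31, SE 0.35, 95% interval 0.52 to 2.10, limma adjusted p = 0.0449). A second bright probe gave the same size (1.31, adjusted p = 0.046), and the dimmest of its 3 probes gave 1.09 (adjusted p = 0.121). That probe was well above background on 1 of 3 WT arrays, and normexp brought it to 0.11. POKO was at 0.72 above WT (adjusted p = 0.351) and at -0.59 against ob/ob (95% interval -1.38 to 0.20, adjusted p = 0.629). The difference of POKO from ob/ob was thus not shown. Without POKO replicate 2 these were 0.42 and -0.90, without POKO replicate 3 POKO vs. ob/ob was -0.40, and POKO vs. WT was 1.1 without WT replicate 3 and 0.44 without WT replicate 2.

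The Fabp4 call was marginal. It was lost with the slide as a block (adjusted p = 0.0637), a shift to the 75th percentile (0.0574), only the groups compared in the fit (0.121) and the mean of its 3 probes (0.0633). Of the 12 fits with 1 array left out it passed in 2, without WT replicate 3 (0.00939) and without POKO replicate 2 (0.0495). The other 10 gave 0.0513 to 0.144. Leaving out WT replicate 2 gave a log2 fold change of 1.03, and leaving out WT replicate 3 gave 1.70. The calls over all probes moved too, to 173 when WT replicate 2 was left out and 8460 when WT replicate 3 was, against 4555 with all arrays.

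Fabp4 moved with endothelial markers. All 10 markers of endothelial cells were well above background on every array. In ob/ob vs. WT, where 11.1% of all probes were called, all 10 were higher, with 4 called, Cdh5, Tie1, Esam and Plvap. All 10 were also higher in PPARγ2KO and in POKO than in WT, with 0 called in either pair. Their mean was 7.89 to 9.07 in WT, 8.71 to 9.44 in PPARγ2KO, 9.39 to 9.69 in ob/ob and 9.09 to 9.55 in POKO. Over the 12 arrays Fabp4 and this mean had a Pearson r of 0.95 (Spearman rho 0.88), a description over arrays that share genotypes. Cdh5, the cadherin of endothelial junctions, was 9.15, 8.80 and 9.73 in WT and had a mean of 10.39 (SD 0.17, n = 3) in ob/ob. The mean of 8 fat cell markers was 2.60 to 2.78 in WT, 2.51 to 3.01 in PPARγ2KO, 2.57 to 3.30 in ob/ob and 2.53 to 3.20 in POKO, with none called. Of these 8 markers only Lipe was well above background on all 12 arrays, and Adipoq and Lep were on none, so that this mean is mostly one of background readings. Macrophage markers had a mean of 5.51 to 6.18 in WT and 6.17 to 7.16 in ob/ob, with 1 of 11 called. Of the 11 lymphocyte markers 7 rose, and their mean had an r of 0.59 with Fabp4, against 0.76 for the PP cell marker, 0.61 for macrophage and 0.37 for fat cell markers. With the duct and acinar means Fabp4 had an r of -0.55 and -0.52. Of 5 duct markers 3 fell in ob/ob vs. WT, and their mean was 10.24 to 10.51 in WT and 9.28 to 10.02 in ob/ob. The part of these cell types in the Fabp4 difference was not tested, and in whole islets more cells of a type and more RNA per cell cannot be told apart.

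**Figure D2:**
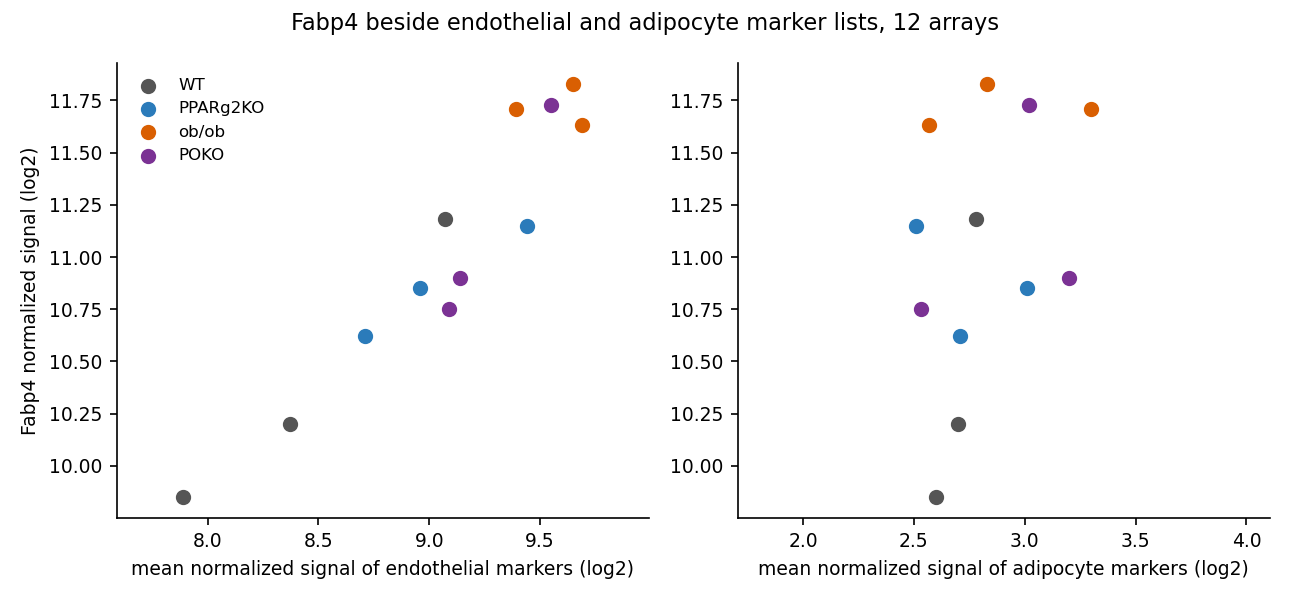
Fabp4 normalized log2 signal (vertical axis) against the mean normalized log2 signal of 10 endothelial markers (left) and 8 fat cell markers (right); each point is 1 of 12 arrays, coloured by genotype. Fabp4 runs along the endothelial mean from WT replicate 2 (7.89, 9.85) to the ob/ob arrays (9.39 to 9.69), while the fat cell mean, mostly of markers near background, lies between 2.51 and 3.30.

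Angptl4 (chr17:33774900-33781575), a secreted inhibitor of lipoprotein lipase, was 11.91, 11.84 and 12.68 in WT, 12.11, 12.38 and 12.74 in PPARγ2KO, 13.15, 12.24 and 12.56 in ob/ob and 12.54, 13.22 and 12.89 in POKO. The genotypes overlapped, and POKO vs. WT gave 0.74 (95% interval 0.05 to 1.44, limma adjusted p = 0.276). Both leptin-deficient genotypes against both lean ones gave 0.49 (adjusted p = 0.177). Angptl4 had an r of 0.80 with the endothelial mean and 0.77 with the macrophage mean over the 12 arrays, which share genotypes. Its r was 0.68 with the fibroblast and stellate mean and -0.57 with the acinar mean. The part of these cell types in the Angptl4 signal was not tested.

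Lpl (chr8:68880555-68906932), the lipase that frees fatty acids from lipoproteins, had its lowest mean in POKO. Its signal was 9.71, 9.92 and 10.27 in WT, 9.79, 9.77 and 9.97 in PPARγ2KO, 9.24, 9.98 and 9.40 in ob/ob and 9.25, 9.46 and 9.44 in POKO. Every POKO array was below every WT and PPARγ2KO array, and ob/ob overlapped with each of the other genotypes. Of all probes, 34.8% had no overlap between POKO and WT and 22.4% between POKO and PPARγ2KO. POKO vs. WT gave -0.58 (SE 0.20, limma adjusted p = 0.196) on this probe and -0.66 (adjusted p = 0.167) on the second. Leptin-deficient against lean gave -0.44 (SE 0.14, adjusted p = 0.0796). None of these passed 0.05.

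Ucp2 (chr7:100493337-100499629), a mitochondrial carrier known to dampen insulin secretion, had its highest mean in PPARγ2KO. It read 9.01, 9.71 and 9.72 in WT, 10.80, 10.63 and 9.84 in PPARγ2KO, 9.58, 9.58 and 9.97 in ob/ob and 9.62, 10.03 and 9.60 in POKO. All PPARγ2KO arrays were above all WT arrays, and 12.7% of all probes had no overlap between these groups, but PPARγ2KO replicate 3 lay within the range of the leptin-deficient genotypes. PPARγ2KO vs. WT was 1.92-fold (log2 fold change 0.94, 95% interval 0.30 to 1.58, limma adjusted p = 0.457), and the second probe gave 0.73 (adjusted p = 0.485) and, with normexp, 0.30. PPARγ2KO was also above ob/ob (ob/ob vs. PPARγ2KO -0.71, adjusted p = 0.218) and POKO (POKO vs. PPARγ2KO -0.67, adjusted p = 0.435). Neither difference passed, and the dimmest Ucp2 probe was well above background on 0 of 12 arrays.

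Cd36 (chr5:17781690-17888959), a fatty acid translocase of the plasma membrane, and Plin2 (chr4:86626910-86670217), the coat protein of lipid droplets outside fat cells, overlapped between all genotypes. Cd36 was 5.80, 5.53 and 6.14 in WT, 5.21, 6.36 and 4.65 in PPARγ2KO, 5.67, 5.32 and 6.16 in ob/ob and 6.22, 6.21 and 5.83 in POKO. The spread of the PPARγ2KO arrays was the widest, with replicate 2 the highest of the 12. Plin2 was 13.11, 13.53 and 14.01 in WT, 13.66, 13.88 and 13.83 in PPARγ2KO, 13.78, 13.10 and 13.00 in ob/ob and 13.55, 13.65 and 13.75 in POKO. The F tests gave adjusted p values of 0.62 for Cd36 and 0.524 for Plin2. Pairwise 95% intervals reached from -1.32 to 1.58 for Cd36 and from -1.06 to 0.92 for Plin2.

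**Figure D3:**
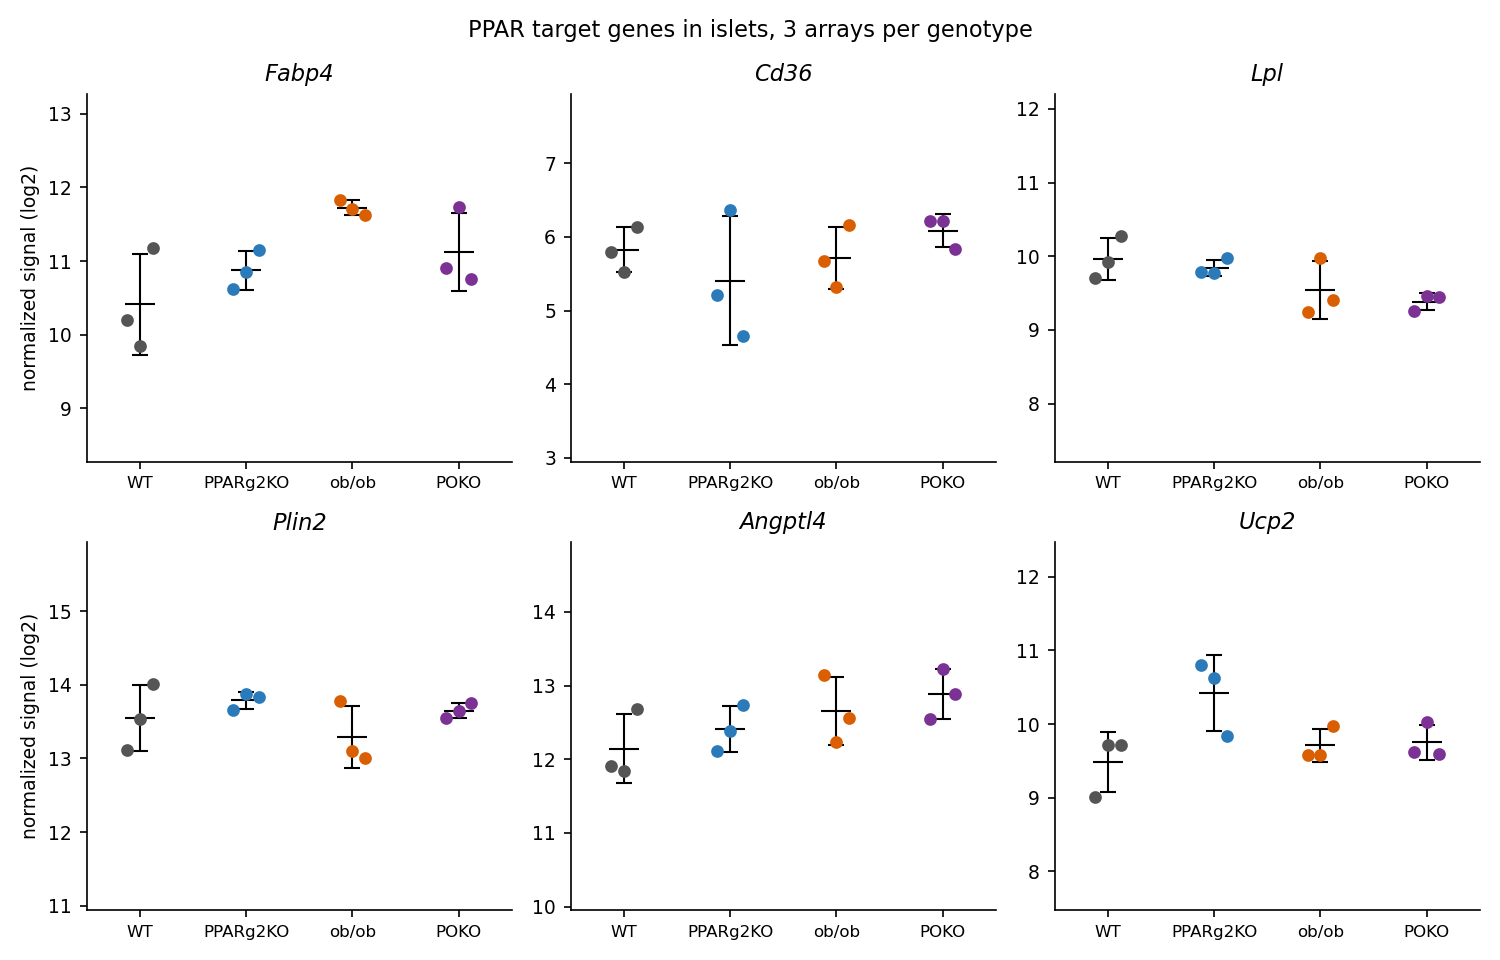
Normalized log2 signal (vertical axis, each panel 5 units high) of the brightest probe of the 6 target genes in the 4 genotypes; points are arrays, and bars are the mean and SD of 3 arrays. By the mean of 3 arrays, Fabp4 is highest in ob/ob (arrays 11.63 to 11.83), Ucp2 in PPARg2KO (9.84 to 10.80), and Lpl lowest in POKO (9.25 to 9.46). Single arrays of other genotypes reach into these ranges.

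In ob/ob vs. WT, 1 of 10 members was called at an adjusted p of at most 0.05, where 11.1% of all probes were (limma, Benjamini-Hochberg). At an unadjusted p of at most 0.05 it was also 1 of 10, Fabp4, against 31.1% of all probes. No member was called in the other pairs. PPARγ2KO vs. WT called 0 of 10 (0% of all probes), and 2 had an unadjusted p of at most 0.05, Pparg and Ucp2 (9.37%). POKO vs. WT called 0 (0.194%), and 3 had such an unadjusted p, Pparg, Lpl and Angptl4 (16.4%). ob/ob vs. PPARγ2KO called 0 (0.00486%) with 3 unadjusted, Pparg, Fabp4 and Ucp2 (19.3%), and POKO vs. ob/ob called 0 (0.00486%) with 1 unadjusted, Pparg (9.28%). POKO vs. PPARγ2KO called 0 (0.00971%) with 2 unadjusted, Lpl and Ucp2 (11.1%), and the interaction called 0 (0%) with 0 unadjusted (13.9%).

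The contrasts over both states of the other gene called no member. The PPARγ2-null against the intact genotypes called 0 of 10 (0% of all probes), with 2 at an unadjusted p of at most 0.05 (3.76%). Leptin-deficient against lean called 0 (9.04%), with 2 unadjusted (28.2%). The median log2 fold change of the 10 members was 0.07 in POKO vs. ob/ob, where it was 0.01 for all probes. For ob/ob against WT it was -0.05, where it was -0.08 for all probes. Both medians of the members include Ppard, whose probe was not well above background on any array, so their size and sign can rest on its background readings. These comparisons share arrays, so their counts are not independent.

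**Figure D4:**
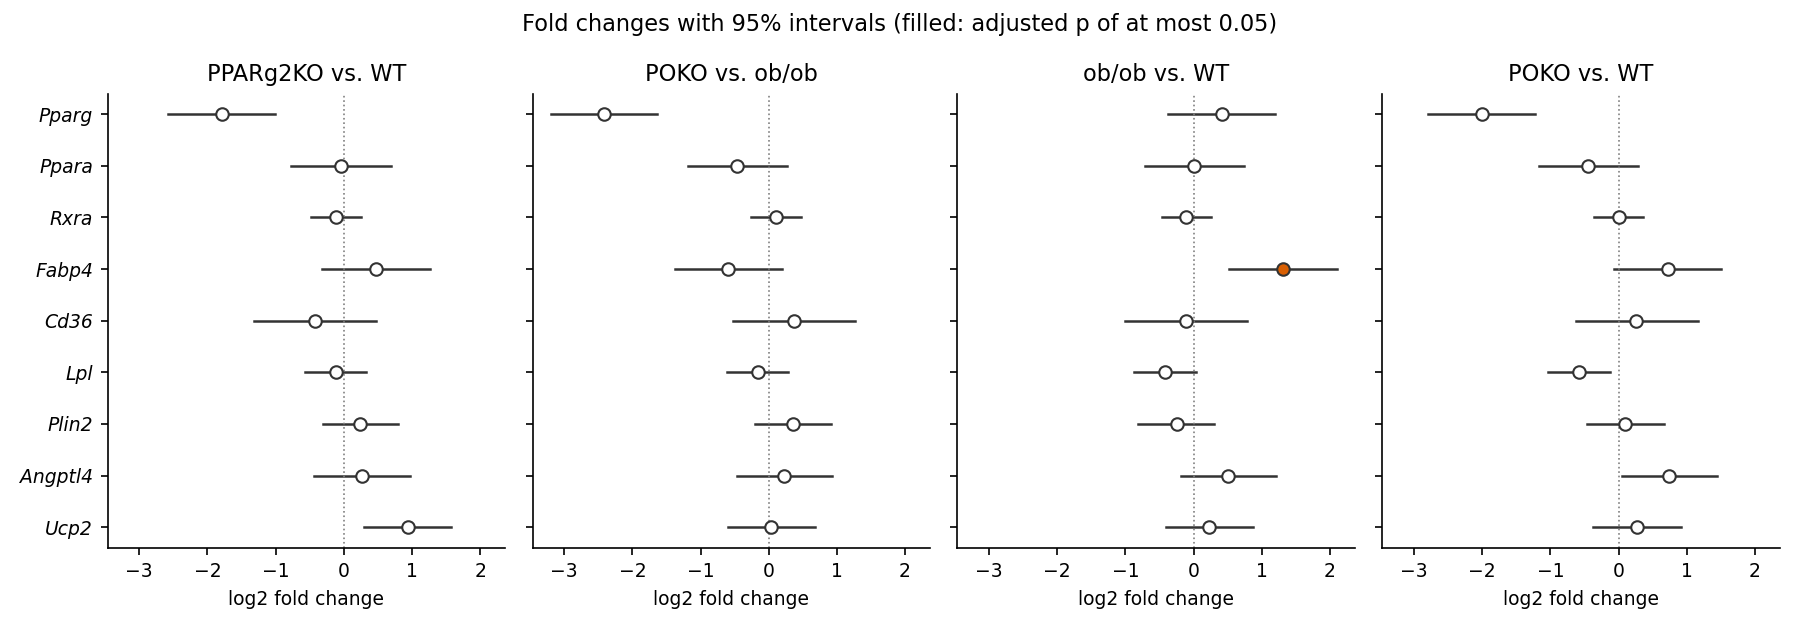
Log2 fold changes (horizontal axis) of the 9 members above background in 4 comparisons; lines are 95% intervals, not adjusted for the number of probes, and the filled point has an adjusted p of at most 0.05. Pparg lies at -1.79 and -2.42 in the comparisons of PPARγ2 alleles, and Fabp4 at 1.31 in ob/ob vs. WT is the filled one.

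Of 94 further genes of the PPAR pathway, grouped by role, 92 were measured. In ob/ob vs. WT, 6 rose and 6 fell at an adjusted p of at most 0.05, and in each of the other 5 pairs 0 did (limma). These 12 of 92 stand beside the 11.1% of all probes called in ob/ob vs. WT. In the same pair 29 of 92 had an unadjusted p of at most 0.05, beside 31.1%, so both shares were near those of the array as a whole. Such an unadjusted p was held by 5 of 92 in PPARγ2KO vs. WT (9.37% of all probes) and 9 in POKO vs. WT (16.4%). It was held by 26 in ob/ob vs. PPARγ2KO (19.3%), 9 in POKO vs. ob/ob (9.28%) and 6 in POKO vs. PPARγ2KO (11.1%). The median log2 fold change of the 92 genes in ob/ob vs. WT was -0.03 against -0.08 for all probes. Of 8 adipocyte differentiation factors, Cebpd rose (1.26, adjusted p = 0.0233) and Cebpa, which maintains the fat cell state with PPARγ, fell (-1.11, adjusted p = 0.0206). Cebpa was 8.45, 8.44 and 7.83 in WT and 7.27, 7.03 and 7.08 in ob/ob, with POKO between them at 7.49, 7.61 and 7.61. PPARγ2KO had 8.13, 7.61 and 7.55, which overlapped with both WT and POKO. Of all probes, 34.8% had no overlap between POKO and WT and 17.7% between POKO and ob/ob, and Cebpa was called in neither pair.

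Of 14 fat cell and lipid droplet genes, Dgat2, which makes triglyceride, rose (1.36, adjusted p = 0.00962), as did Gpihbp1, the endothelial anchor of lipoprotein lipase (1.88, adjusted p = 0.0249). Dgat2 was 11.16, 11.31 and 11.29 in ob/ob, above the 10.38, 10.87 and 10.46 of POKO. It was 10.42, 10.15 and 10.11 in PPARγ2KO and had a mean of 9.89 in WT (n = 3). Of all probes, 17.7% had no overlap between POKO and ob/ob, and Dgat2 was not called in that pair. Plin3, a lipid droplet coat protein, fell (-1.23, adjusted p = 0.0276), and Plin1, the coat protein of fat cells, was well above background on 1 of the 12 arrays.

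Of 16 genes of fatty acid uptake and binding, Fabp3, the heart fatty acid carrier, rose (1.36, adjusted p = 0.0375) and Dbi, an acyl-CoA carrier, fell (-0.91, adjusted p = 0.0348). Fabp6, a bile acid carrier, was called as lower (adjusted p = 0.0375) but was well above background on 0 of 12 arrays, and its sign turned under another background correction. Of 19 oxidation genes, Cpt2 (0.52) and Scp2 (0.53) rose, with adjusted p values of 0.0435 and 0.0498. Of 6 lipogenic genes the desaturases Scd2 (-0.86, adjusted p = 0.0449) and Fads2 (-0.88, adjusted p = 0.043) fell, and Scd1 was at -0.71 (adjusted p = 0.202). Scd1 was at -1.11 without ob/ob replicate 1 (adjusted p = 0.0344) and at -0.29 without ob/ob replicate 3. None of 13 partners and coregulators, 8 lipoprotein and cholesterol genes, 4 glycerol and glucose genes and 4 others was called. Of the 12 called genes, Dgat2 passed in all 12 fits with 1 array left out, and the others passed in 2 to 8 of them.

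**Figure D5:**
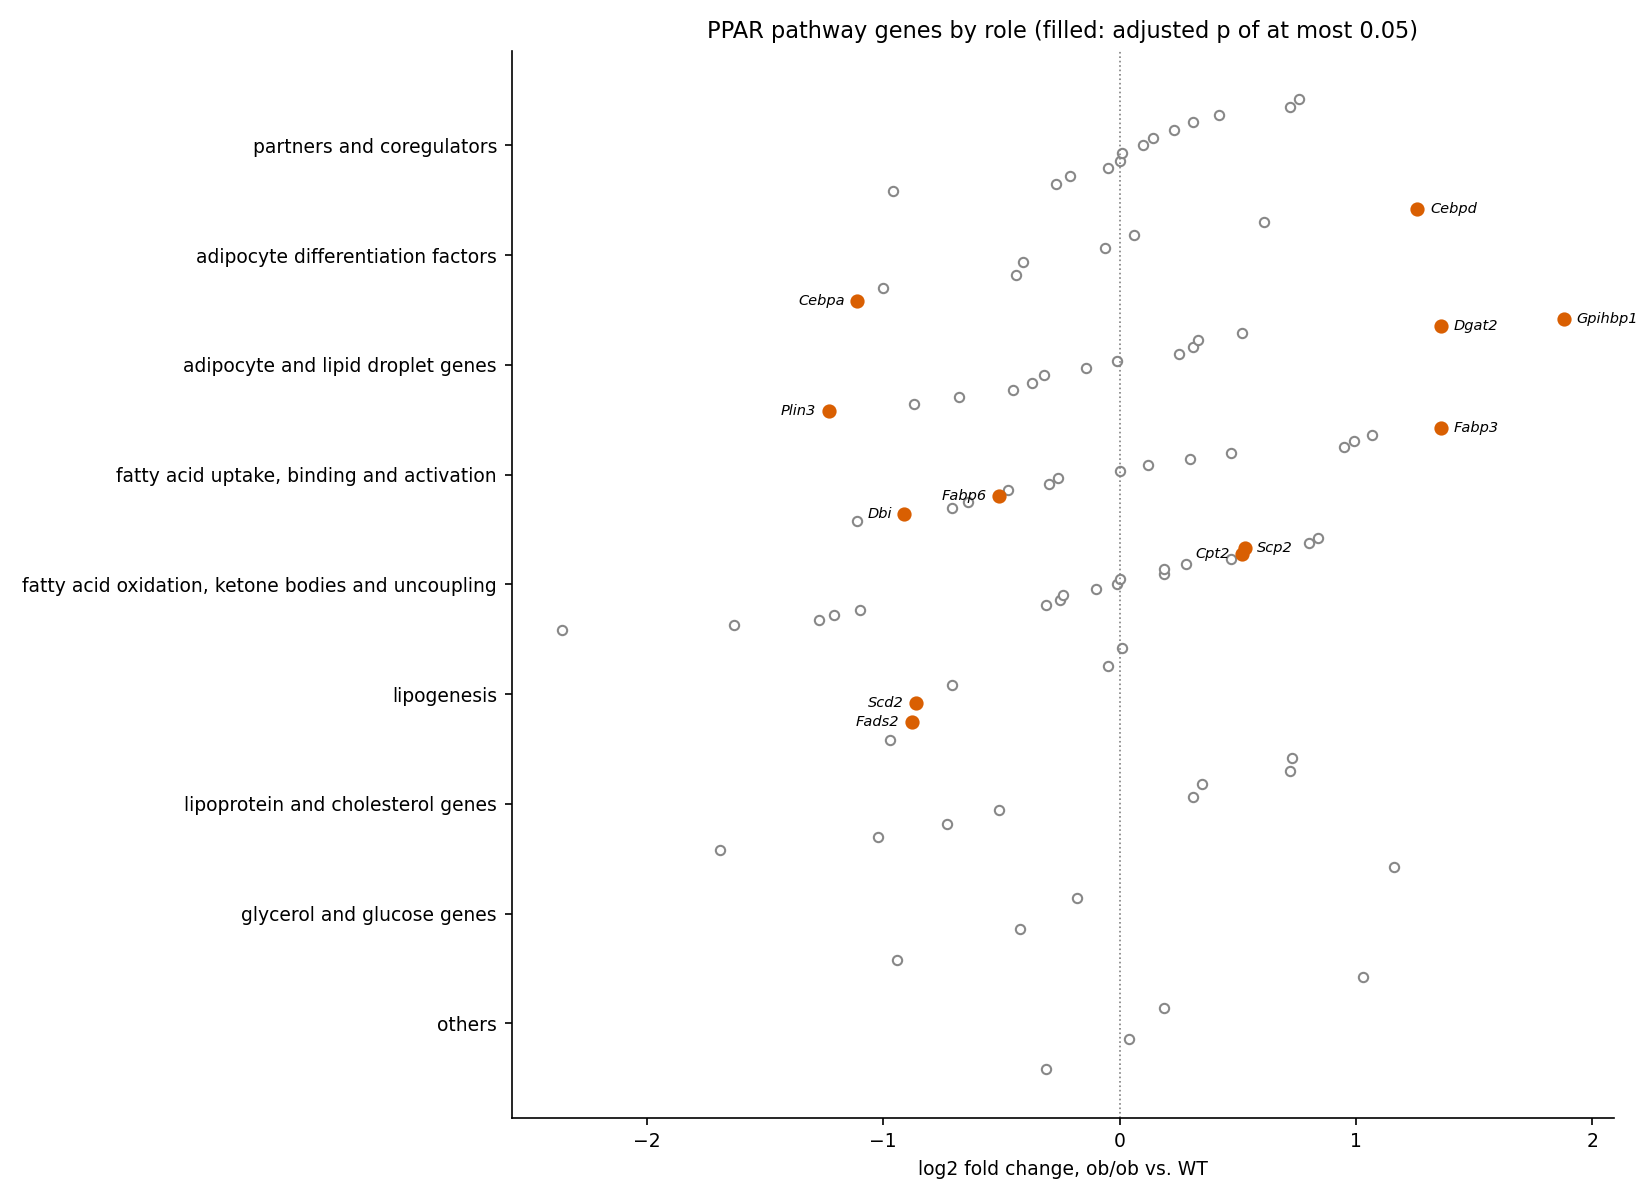
Log2 fold change in ob/ob vs. WT (horizontal axis) of 92 PPAR pathway genes by role (rows; within a row, genes are spread by rank); filled points have an adjusted p of at most 0.05. Gpihbp1 (1.88) is the highest of the called genes and Plin3 (-1.23) the lowest, and most genes of each role are not called.

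The genes most like each member over the 12 arrays were ranked by Pearson r among 11694 named genes well above background on every array. For Fabp4 they were Robo4, a guidance receptor of endothelial cells (0.95), Gpihbp1 (0.95) and Tifa (0.95). For Angptl4 they were complement C3 (0.94), Fcrls, a receptor of macrophages and microglia (0.94), and Fcgrt, the neonatal Fc receptor (0.92). For Pparg they were Zfp688 (0.90), Arfip1 (0.84) and Elp4 (0.82). These r values are the highest of many and carry no test. Between members, Fabp4 and Angptl4 had the highest r, 0.73, while Pparg had 0.10 with Fabp4, 0.03 with Cd36, 0.28 with Lpl, -0.59 with Plin2, -0.36 with Angptl4 and -0.33 with Ucp2.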

How the data were processed

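The study measured islet RNA on 12 Agilent Whole Mouse Genome arrays. Before deposit, per the file headers, Feature Extraction (10.1.1.1 in the submitters' processing notes) read spot intensity values and subtracted a background; these intensities are not normalized between arrays. The authors also deposited normalized log2 values, used here as an alternative only. Of 45018 spots, 1639 controls and, over all arrays, 919 outlier spots were left out; 0 were saturated. Processed signals were quantile normalized and put on the log2 scale, and spots were averaged over 41174 probes, of which 25097 were named by RefSeq accession in the RefSeq genes of GRCm38.p6. The comparisons came from 1 limma fit (limma 3.58.1, R 4.3.3) over the 12 arrays with a term for genotype alone; p-values were adjusted by Benjamini-Hochberg across all probes, and the fit was checked on simulated data. The study's block for the array cannot be fitted, since an array holds 1 sample. For a gene with several probes the one brightest on average stands for it, and a probe counts as above background on an array where the scanner software says so for at least 0.5 of its usable spots.

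Each of the 3 slides holds the array of 1 replicate number of every genotype and was scanned at 1 time, so the replicate number, the slide and the scan are the same block. The place of an array on the slide follows the genotype, and the 2 cannot be told apart. Deviations of same-numbered arrays had correlations of -0.27 to 0.26, with 4 of 18 pairs above 0.1. Nothing ties pools to shared animals, and p-values measure the spread between pools. The study's text gives an older age of the mice than the labels.

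Named genes are the 10 members with all probes named through RefSeq (a probe with another kind of accession is unnamed here, so a member such as Cd36 may have further probes, not used here), the called genes of the pathway list with up to 3 per role and direction, Rxrb, Rxrg, Adipoq, Plin1, Cebpa and Scd1, the 3 genes most like a member, Lep and cell type markers. Members and lists were chosen with earlier results of these data known. The letters of the start windows are from RefSeq, and 7 of the 10 members had one. One gene of the pathway list is not reported here and was left out of its counts.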

Additional observations from a re-analysis of the deposited data

How the results depend on the processing

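The counts of called members were recomputed under 10 alternatives and with each array left out. With the replicate number as a block (the same fit as the slide or scan block), 0 members were called in ob/ob vs. WT and 0 in the test of any difference among genotypes, in place of 1 and 1; the paired fit changed no other count. A shift to the 75th percentile, and likewise a fit of only the groups compared, gave 0 for ob/ob against WT and 1 for POKO against WT. The filter on dim probes gave 1 in POKO vs. WT and 1 in ob/ob vs. PPARγ2KO. Normexp gave 0 in the test of any difference, and averaging a gene's probes gave 0 in ob/ob vs. WT. Array weights gave 1 in POKO vs. WT, 1 in ob/ob vs. PPARγ2KO, 1 in POKO vs. ob/ob and 2 in the test of any difference, where 10021 of all probes were called against 232. Over all probes, ob/ob vs. WT had 4555 calls, 564 with only the groups compared, 13481 with array weights and 2253 with a log2 fold change of at least 1 asked as well; the test of any difference had 29 with the block, 98 with normexp, 476 with the shift and 1346 without dim probes. With an array left out these ran from 173 to 8460 and from 27 to 2460. Normexp with an offset starts from the median spot and background intensities in place of the processed signal, and adds a constant to every signal. This alternative took Pparg in POKO vs. WT to -1.07, ob/ob vs. PPARγ2KO to 1.3 and null vs. intact to -1.18. Which of these changes moved the values was not tested. With an array left out, the counts ran from 0 to 1 in POKO against ob/ob or WT and in ob/ob against PPARγ2KO or WT, and from 0 to 2 in the test of any difference. The counts of PPARγ2KO vs. WT, POKO vs. PPARγ2KO and the interaction were 0 under every alternative run. Signs reversed for Fabp6 in ob/ob vs. WT with normexp (0.01) and for Pparg in POKO vs. PPARγ2KO without POKO replicate 1 (0.02; the other fits with an array left out reached -0.47). The cause was not tested. A shift to the 75th percentile moved the median over all probes for ob/ob against WT from -0.08 to -0.19 on the log2 scale. Ppard, 1 Ucp2 probe and, in WT, 1 Fabp4 probe are limited by signal over background.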
